A study of Mus musculus with 2 samples.

Results

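The 45 genes described here belong to glycolysis and to the cell's response to low oxygen: the enzymes from glucose to pyruvate, lactate and pyruvate dehydrogenases with the kinases of the latter, the enzymes that set fructose phosphates, lactate carriers, and the Hif transcription factors with their regulators and some of their best known targets. They were taken by symbol from a list of names that sets no threshold on a measured value, and all 45 were found among the 43346 genes of the deposited tables. Levels were read in 2 total RNA-seq libraries of intestine from mouse embryos of the B6NCrl strain, taken at embryonic day 14.5, for which the labels name no treatment or genetic change and which form a single group. The labels trace each library to the intestine of a single pup, on day 17 of a month for replicate 1 and day 15 for replicate 2, with the same donor record, the same pup and dam numbers (pup 1, dam 2) and a sex given as pooled. Each library was made from 10 ng of RNA above 200 nucleotides. With 1 group there is no contrast between conditions and no test, so each value is given for both libraries, or as their mean ± SD (n = 2).

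Glycolysis splits glucose into pyruvate in the cytosol, and most of its steps can be run by any of several isozymes, encoded by separate genes with different tissue patterns. Pyruvate is then either reduced to lactate, which leaves the cell through monocarboxylate carriers, or enters mitochondria and is oxidised by the pyruvate dehydrogenase complex, which its kinases switch off. Hif factors pair an oxygen-labile alpha subunit with the stable partner Arnt. In oxygen, Egln prolyl hydroxylases mark the alpha subunit and the Vhl protein targets it for breakdown, so that Hif activity is set largely at the protein and can differ from the mRNA levels measured here. In low oxygen the factor binds sites with the core ACGTG and raises genes of glycolysis, mitophagy and pH control. Proliferating embryonic tissues are known for high glycolytic expression, and the fetal gut holds epithelium, mesenchyme, muscle, neurons, vessels and blood. In such a bulk sample, fewer cells of a type and less RNA per cell cannot be told apart.

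The tissue label fits the markers of the gut, since all 4 genes of epithelium (Cdx2, Epcam, Vil1, Cdh1) and all 4 of smooth muscle were detected, with summed levels of 693 and 699 TPM and 2944 and 2759.5 TPM in replicates 1 and 2. TPM, the unit used throughout, is a transcript's abundance corrected for its length and scaled to a fixed total per library, so that genes can be compared with each other. The gene tables held 32938592 and 32371363 expected counts in genes. Replicate 2 stood apart in markers of the pancreas, 8 of 8 higher, with a summed level of 8.61 TPM in replicate 1 and 1013 in replicate 2 and 4 of the 8 at 0 in replicate 1. Erythroid markers were higher in 4 of 5 (3357 and 4995 TPM summed) and neutrophil markers, 2 of 5 higher and 2 lower, summed to 5.06 and 20.1 TPM, with Ly6g at 0 in both. Xist, the RNA that silences an X chromosome, was at 77.2 and 0.06 TPM and the Y-linked Eif2s3y at 0 and 46.5, values that go against the label of a pooled sex. Skeletal muscle markers, of interest because several isozymes here are muscle forms, summed to 10.5 and 12.3 TPM. Liver markers, of interest for the liver forms, summed to 88.5 and 89.5 TPM, with Alb at 0.82 and 0.13.

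Of the 45 genes, 44 were detected, meaning TPM of 1 or more in both libraries, while 61.3% of 21474 protein-coding genes were. The gene under that level was Fbp1. Levels covered a wide range: 4 genes stood at 1000 TPM or more (Ldha, Gapdh, Eno1 and Pkm), 14 in all at 100 or more, 21 from 10 to 100 and 9 from 1 to 10. The median over all 45 was 34.8 TPM in replicate 1 and 33.3 in replicate 2. Over the detected members it was 34.2 TPM for the mean of both libraries, beside 18.4 over the 13173 detected protein-coding genes. The plot of levels shows both libraries for every gene with the 95% interval that the authors deposited. That interval is centred on a posterior mean, so for genes of high count the TPM often lies just above it.

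**Figure D1:**
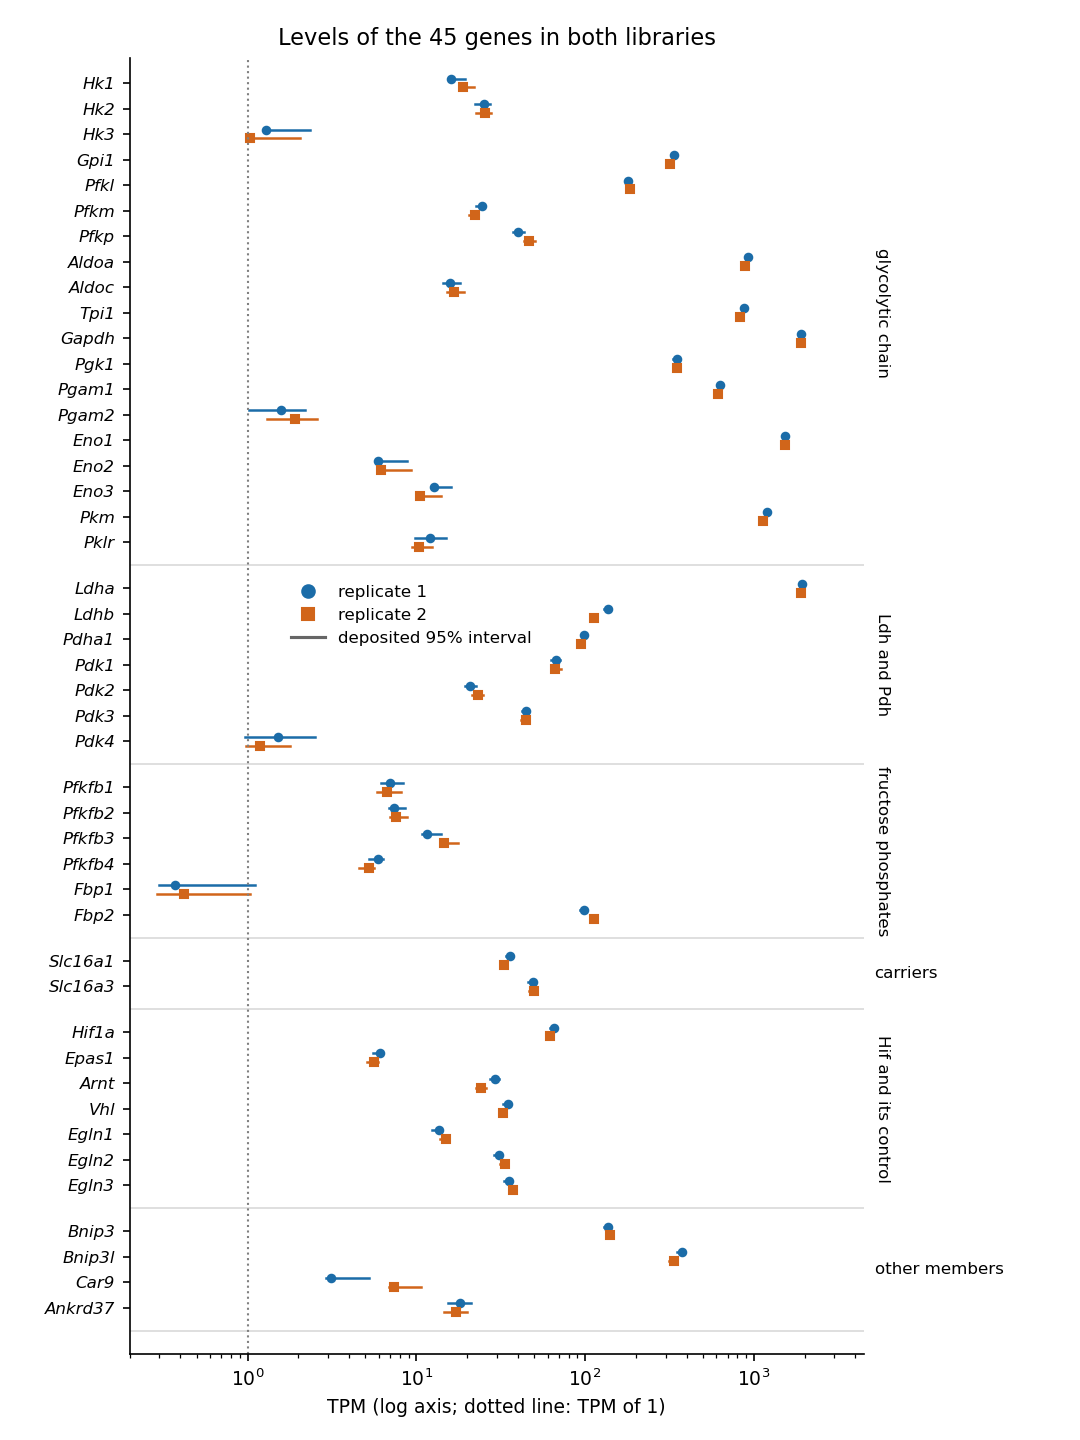
TPM of each of the 45 genes on a log axis, grouped by role, with replicate 1 as circles, replicate 2 as squares and the deposited 95% interval of each as a line. Gapdh, Ldha, Eno1 and Pkm lie above 1000 TPM in both libraries, Fbp1 alone lies under TPM 1, and the libraries stand furthest apart for Car9.

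The chain from glucose to pyruvate was led in level by its lower part. Summed over the isozymes analysed here, the 10 steps held 8102 TPM in replicate 1 and 7903 in replicate 2, which was 0.898% and 0.882% of the TPM of all genes. The step with the least was hexokinase, which commits glucose to the cell, at 48.0 ± 2.67 TPM. Glucose-6-phosphate isomerase reached 327 ± 12.4 TPM and phosphofructokinase, the main control point, 249 ± 5.28. Aldolase, which cuts the sugar into its triose products, reached 925 ± 26.5 TPM as the sum of Aldoa and Aldoc and triosephosphate isomerase 851 ± 30.5. Of the steps that follow, glyceraldehyde-3-phosphate dehydrogenase stood at 1904 ± 9.85 TPM, phosphoglycerate kinase at 349 ± 0.849, phosphoglycerate mutase at 627 ± 10.6, enolase at 1546 ± 3.08 and pyruvate kinase at 1177 ± 56.1. Phosphoglycerate kinase was thus the lowest step below aldolase, and the gaps to its neighbours were many times the spread between libraries. Lactate dehydrogenase, which follows the chain, summed to 2048 ± 26.2 TPM. A gene's TPM adds up all of its transcripts, including short non-coding ones. Counting only transcripts annotated as protein-coding, the 10 steps held 7005 and 6818 TPM, and the change was large for 2 steps: glyceraldehyde-3-phosphate dehydrogenase came to 914 ± 4.12 TPM and hexokinase to 30.4 ± 2.65. Glyceraldehyde-3-phosphate dehydrogenase then ranked below enolase and pyruvate kinase, and it differed from aldolase, at 908 ± 26.0 TPM, by less than the spread between libraries. The other steps kept their order.

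**Figure D2:**
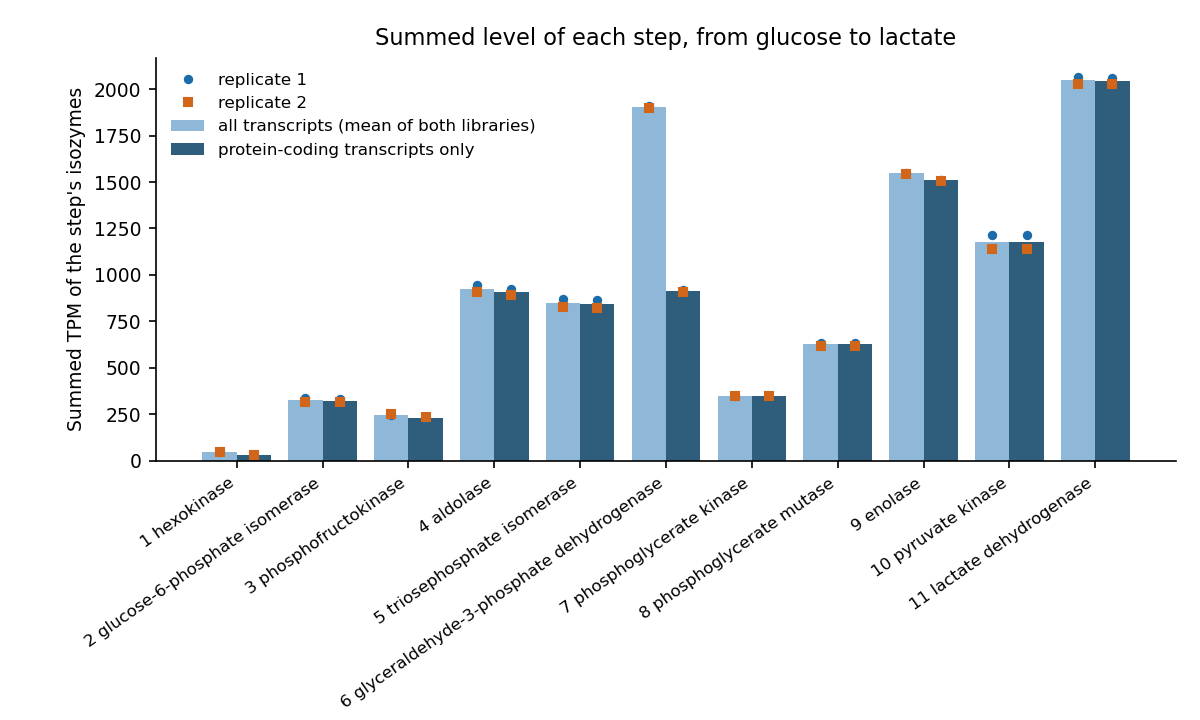
Summed TPM of the isozymes of each of the 10 glycolytic steps and of lactate dehydrogenase, as the mean of both libraries (bars) with each library as a point, for all transcripts and for protein-coding transcripts only. Hexokinase is the lowest step, lactate dehydrogenase the highest, and only glyceraldehyde-3-phosphate dehydrogenase loses most of its level, from 1904 to 914 TPM, when non-coding transcripts are left out.

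Hexokinase was divided mainly between 2 genes. Hk2, the inducible form that binds mitochondria, stood at 25.2 and 25.4 TPM, from 1285 and 1295 expected counts, with deposited intervals of 22.3 to 27.4 and 22.6 to 27.7. Hk1, the form of most tissues, was at 16.1 and 18.9 TPM, and Hk3, a form of blood cells, at 1.28 and 1.04. Of the summed TPM of Hk1, Hk2, Hk3 and Hkdc1, Hk2 held 52.8 ± 2.65% and Hk1 36.4 ± 2.13%. Adpgk, listed below with other isozymes of the steps, was at 30.0 and 27.6 TPM, above Hk2, and is outside this sum. This lead is not stable, since Hk2 has a 594-base non-coding transcript with 16.3 and 16.8 TPM. On protein-coding transcripts Hk1 led with 56.2% and 58.3%, and Hk2 held 31.4% and 26.8%.

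Phosphofructokinase was led by its liver form. Pfkl reached 181 and 184 TPM (15100 and 15541 counts, intervals 174 to 181 and 177 to 184), against 40.0 and 46.6 for the platelet form Pfkp and 24.4 and 22.3 for the muscle form Pfkm. Pfkl thus held 73.2 ± 0.708% of the family, above Pfkp in both libraries by 4.23 ± 0.405 times and above Pfkm by 7.82 ± 0.580 times. Pfkp shares 748 bases of exon sequence with the overlapping gene Pitrm1 (74.5 and 64.7 TPM), so its level is less certain than its interval shows.

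The isomerases and the middle of the chain were dominated by a single gene each. Gpi1, the only gene of its step, had 336 and 318 TPM (15159 and 14516 counts, intervals 323 to 333 and 306 to 316). Tpi1, likewise alone, had 872 and 829 TPM (30174 and 28991 counts, intervals 842 to 862 and 800.2 to 819.6). Of the aldolase members, Aldoa is the muscle and general form and Aldoc the brain form. Aldoa was at 928 and 890.0 TPM (30103 and 29157 counts, intervals 896 to 917 and 859 to 879.9), and Aldoc at 15.9 and 16.7 TPM. Aldoa thus made 98.2 ± 0.108% of the sum of both.

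Gapdh (ENSMUSG00000057666.14, mm10 chr6:125161715-125166467) was the most abundant gene of the chain when all transcripts are counted, with 1910.1 and 1897 TPM, 36697 and 36719 counts and intervals of 1831 to 1892 and 1820.1 to 1879.8. Its germ-cell paralog Gapdhs was at 0.4 and 0.07 TPM. Pgk1, on the X chromosome, makes the first ATP of the chain and stood at 348 and 349.6 TPM (13935 and 14159.8 counts, intervals 330.4 to 351 and 330.4 to 351). The testis form Pgk2 had no count in either library. Pgam1 had 633 and 617 TPM (25448 and 25112 counts, intervals 608 to 626 and 594 to 611), 364 ± 55.2 times the muscle form Pgam2 at 1.57 and 1.90. Eno1 (ENSMUSG00000063524.9, mm10 chr4:150236721-150248879), the general enolase, had 1529 and 1527 TPM (67366 and 68086 counts, intervals 1481 to 1506 and 1479.8 to 1505). It held 98.8 ± 0.0919% of the sum of Eno1, Eno2, Eno3 and Eno4, while the muscle form Eno3 was at 12.8 and 10.6 TPM and the neuronal form Eno2 at 5.96 and 6.19. The near-identical copy Eno1b, at 7.32 and 8.33 TPM, stood above Eno2 and was treated as a copy of Eno1, outside this sum. Muscle and neuronal forms were thus minor at both steps.

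Across 17 gene families with 2 or more isozymes analysed here, the gene with the highest TPM was the same in both libraries in 17. It held over 90% of the family in 9, from 50% to 90% in 5 and under 50% in 3. The 9 include the families of Gapdh, Pgk1 and Pdha1, in each of which the only other gene was at 0.4 TPM or less. The median share of the leading gene was 93.9 ± 0.743%, which is the share of Ldha in its own family. On protein-coding transcripts alone, an alternative added after the values were seen, 14 of the 17 kept their leading gene. The 3 exceptions were hexokinase, pyruvate dehydrogenase kinase and the Bnip3 pair, in each of which the leading gene has over 50% of its TPM in non-coding transcripts.

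**Figure D3:**
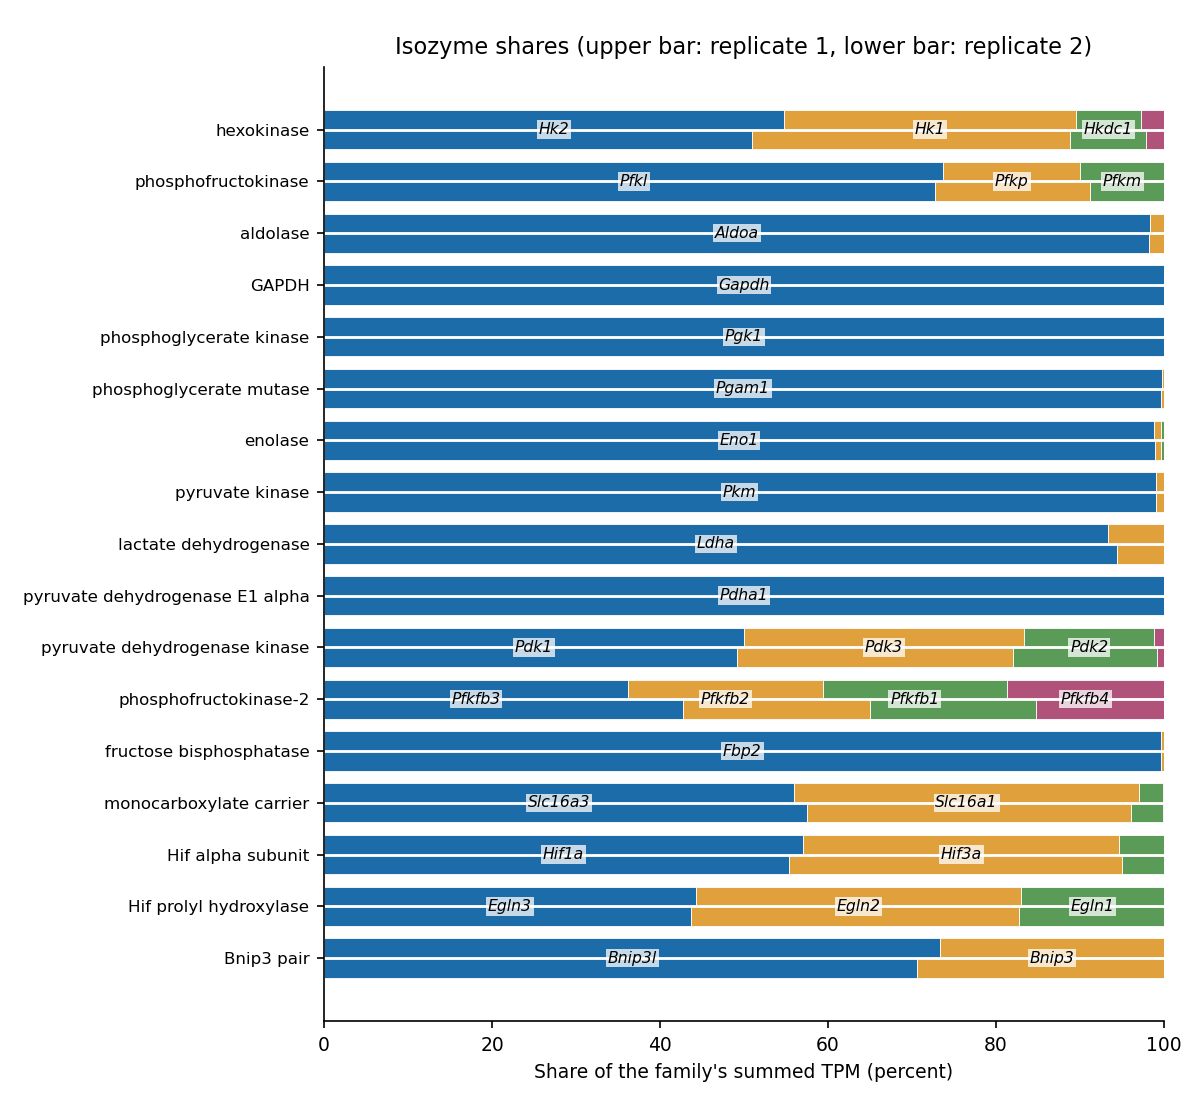
Share of each family's summed TPM held by its isozymes, in percent, with replicate 1 as the upper and replicate 2 as the lower bar of each family. The lower chain and fructose bisphosphatase are each held almost whole by a single gene, while hexokinase, pyruvate dehydrogenase kinase, phosphofructokinase-2, the carriers and the Egln genes are divided, in nearly the same way in both embryos.

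Pyruvate kinase closes the chain and came almost entirely from Pkm (ENSMUSG00000032294.12, mm10 chr9:59656368-59679375), at 1205 and 1127 TPM (65279 and 61765 counts, intervals 1166 to 1184 and 1091 to 1109). The liver and red cell form Pklr was at 12.1 and 10.3 TPM, and shares 711 bases with the overlapping gene Hcn3 (1.96 and 1.41 TPM). Pkm makes 2 enzymes through a choice between mutually exclusive exons, the M1 form of adult muscle and brain and the M2 form of embryonic and proliferating cells. The tables hold 2 Pkm transcripts, both of 2432 bases, which differ only in that exon, the ninth of each. The exons are shown because the whole measure of the splice choice rests on reads that cover them. Both are 167 bases long and 372 bases apart on the plus strand, the M1 exon at chr9:59675029-59675195 and the M2 exon at chr9:59675568-59675734 (GRCm38, sequence from GENCODE M21 transcripts). They are printed 5′ to 3′, and capitals mark the 64 positions at which they differ.
M1 exon: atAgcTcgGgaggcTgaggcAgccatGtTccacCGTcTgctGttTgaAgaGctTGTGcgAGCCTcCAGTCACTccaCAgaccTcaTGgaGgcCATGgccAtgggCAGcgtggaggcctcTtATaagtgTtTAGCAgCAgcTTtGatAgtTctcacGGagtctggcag
M2 exon: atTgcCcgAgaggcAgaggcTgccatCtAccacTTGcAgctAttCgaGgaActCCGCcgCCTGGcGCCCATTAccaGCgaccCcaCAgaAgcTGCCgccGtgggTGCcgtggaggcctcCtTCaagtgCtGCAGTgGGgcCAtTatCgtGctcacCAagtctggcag
The other 103 positions, 61.7%, are the same, and the longest run without a difference is 12 bases. Any aligned stretch of more than 12 bases within the exons therefore holds a difference. The exon makes up 6.87% of each transcript, so the choice was read from a small part of the Pkm counts.

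By the deposited isoform percentages, the M2 transcript Pkm-201 made up 90.3% of Pkm in replicate 1 and 90.9% in replicate 2, and the M1 transcript Pkm-202 9.71% and 9.12%. In level this was 1088 and 1024 TPM of M2 and 117 and 103 TPM of M1. The deposited intervals of M1 were 107 to 121 and 93.3 to 107 TPM, far from 0 and far from those of M2, 1050.5 to 1072 and 989 to 1010.2. M2 exceeded M1 by 9.30 times in replicate 1 and 9.97 times in replicate 2. The M1 level alone was thus well above that of Pklr. Of a list of 6 genes known to act on this splice choice, the highest were Srsf3 at 690.1 and 629.7, Hnrnpa1 at 681 and 620.0 and Hnrnpa2b1 at 403 and 384 TPM. Ptbp1, which represses the M1 exon, was at 226 and 227. All 6 were detected. None differed between the embryos by the rule given with the embryo comparison, by which 0.45% of all genes were higher and 0.0442% lower.

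At the branch after pyruvate, lactate dehydrogenase was made almost wholly from Ldha (ENSMUSG00000063229.10, mm10 chr7:46841475-46855627), whose subunit favours lactate formation. Ldha had 1929 and 1916 TPM (66315 and 66715 counts, intervals 1868 to 1897 and 1856 to 1884). Ldhb (ENSMUSG00000030246.7, chr6:142490249-142507957), the heart-type subunit, had 137 and 113 TPM (3835 and 3201 counts, intervals 130.2 to 139 and 107 to 116). The share of Ldha in their sum was 93.4% and 94.4%, and Ldhc, the testis form, had no count. Ldha had the highest TPM of all 45 genes in both libraries, with Gapdh close below it. The deposited intervals of the 2 genes overlapped in each library, so their order was not resolved. Near-identical copies of Gapdh held a further 124 and 107 TPM, more than the gap between the 2 genes. Those of Ldha held 3.23 and 2.89 TPM. On protein-coding transcripts alone Ldha was at 1920.5 and 1912 TPM and Gapdh at 917 and 911.

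On the mitochondrial side, Pdha1, the X-linked catalytic subunit of pyruvate dehydrogenase, had 99.0 and 94.0 TPM (6268 and 6051 counts, intervals 94.6 to 99.6 and 89.8 to 94.6). Its retrogene copy Pdha2 had no count. A list of 9 other genes, of further subunits, the phosphatases Pdp1 and Pdp2 with the regulator Pdpr, and the pyruvate carrier, was detected in full, with Pdhb at 147 and 134 TPM, Mpc1 at 135 and 132 and Dld at 116 and 107 the highest. Levels of these 3 were thus near that of Pdha1 and far below that of Ldha.

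Pyruvate dehydrogenase kinases, which close this route, were led by Pdk1, the kinase best known as a Hif target. Pdk1 had 66.8 and 66.4 TPM (5304 and 5329 counts, intervals 63.1 to 70.6 and 62.8 to 72.0), or 49.5 ± 0.586% of the family. The X-linked Pdk3 followed with 44.7 and 44.5 TPM (2088 and 2101 counts, intervals 42.2 to 46.4 and 42.0 to 46.3). Pdk2, the broadly expressed form, had 20.8 and 23.1 TPM (1006 and 1091 counts, intervals 19.5 to 22.6 and 21.5 to 24.9). Pdk4, the form raised by fasting and fatty acids, had 1.52 and 1.18 TPM (86 and 94 counts, intervals 0.97 to 2.51 and 0.97 to 1.79). No neighbours in this order overlapped. The order of the first 2 turned when only protein-coding transcripts were summed, with Pdk3 then at 47.6% and Pdk1 at 29.2% of the family.

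The bifunctional Pfkfb enzymes make and break fructose 2,6-bisphosphate, the activator of phosphofructokinase, and all 4 genes were expressed at low, similar levels. Pfkfb3, whose enzyme is nearly all kinase, had 11.5 and 14.6 TPM (608 and 747 counts, intervals 10.8 to 13.97 and 13.7 to 17.6). Pfkfb2, the heart form, had 7.36 and 7.58 TPM (497 and 516 counts, intervals 6.87 to 8.57 and 7.02 to 8.78). Pfkfb1, the X-linked liver and muscle form, had 6.96 and 6.73 TPM (229 and 198 counts, intervals 6.19 to 8.34 and 5.87 to 8.10). Pfkfb4, the testis form that is also a Hif target, had 5.95 and 5.21 TPM (447 and 396 counts, intervals 5.28 to 6.36 and 4.59 to 5.59). Pfkfb3 was the highest in both libraries, with 36.2% and 42.8% of the family. The intervals of Pfkfb1 and Pfkfb2 overlapped in each library, and those of Pfkfb1 and Pfkfb4 in replicate 1. The order below Pfkfb3 was thus not fully resolved. On protein-coding transcripts alone Pfkfb2, at 4.8 and 4.39 TPM, was the lowest of the 4.

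Fructose bisphosphatase runs the phosphofructokinase step backwards, and here the muscle form was the expressed one. Fbp2 had 99.0 and 113 TPM (2820 and 3263 counts, intervals 93.1 to 100.2 and 107 to 114), while Fbp1, the liver and kidney form of gluconeogenesis, had 0.37 and 0.42 TPM from 12 counts in each. Fbp2 was 269 ± 1.51 times Fbp1 in TPM and 156 ± 19.8 times in the deposited posterior means, so with 12 counts behind Fbp1 the size of this ratio is uncertain. Skeletal muscle markers did not share that level, with Ckm at 0.46 and 0.58 TPM, Myod1 at 0.05 and 0 and the highest of the 6, Mylpf, at 7.28 and 8.64. Of 6 other genes of gluconeogenesis, 4 were detected, with G6pc3 at 28.4 and 29.3 TPM, Slc37a4 at 23.8 and 23.5 and Pck2 at 21.8 and 20.8 the highest. The liver forms Pck1 (0.69 and 0.6 TPM) and G6pc (0.02 in both) were not.

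Lactate leaves cells through Slc16a3 (Mct4), the low-affinity exporter of glycolytic cells, and Slc16a1 (Mct1), which carries it both ways. Slc16a3 had 49.1 and 49.6 TPM (2306 and 2373 counts, intervals 46.1 to 51.1 and 46.7 to 51.6) and Slc16a1 36.1 and 33.3. Their partner Bsg, which brings both to the cell surface, was at 705 TPM in each library. Slc16a3 was higher per length by 1.43 ± 0.0921 times, although Slc16a1, with the longer mRNA, had more counts (3625 and 3380).

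Among the Hif alpha subunits Hif1a (ENSMUSG00000021109.9, mm10 chr12:73901375-73947530) was the highest, with 65.3 and 62.2 TPM (6428 and 6106 counts, intervals 62.0 to 66.3 and 58.9 to 63.5). Epas1, which encodes Hif-2 alpha and is strong in endothelium, had 6.10 and 5.65 TPM (738 and 691 counts, intervals 5.53 to 6.39 and 5.11 to 5.93), 10.9 ± 0.211 times less than Hif1a. Hif3a, which is no member and encodes forms that can oppose the other two, was at 43.1 and 44.5 TPM, nearer to Hif1a than to Epas1. The common partner Arnt stood at 29.1 and 24.1 TPM, and its neural paralog Arnt2 at 5.32 and 4.34. Hif1a thus exceeded its partner in mRNA level in both libraries.

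The genes that restrain Hif were all expressed. Egln3, itself a strong Hif target, had 35.4 and 37.7 TPM (2107 and 2268 counts, intervals 33.1 to 36.0 and 35.3 to 38.3). Egln2, the nuclear form, had 30.9 and 33.7 TPM (1398 and 1568 counts, intervals 28.8 to 32.3 and 31.5 to 34.97). Egln1, the main oxygen sensor in most cells, was the lowest, with 13.6 and 14.9 TPM (1076 and 1199 counts, intervals 12.5 to 14.03 and 13.8 to 15.4). The intervals of the 3 did not overlap within either library, and Egln3 exceeded Egln1 by 2.57 ± 0.0626 times. Vhl stood at 34.8 and 32.6 TPM. Of 11 other partners and regulators of Hif all 11 were detected, led by the chaperone Hsp90ab1 at 1272 and 1222 TPM, the Vhl complex subunit Elob at 796 and 784 and its partner Eloc at 198 and 199.6.

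Target genes of Hif in the list ranged from abundant to rare. Bnip3l, a mitophagy receptor, had 376 and 336 TPM (7170.5 and 6675 counts, intervals 353 to 381 and 315 to 341), and its paralog Bnip3 136 and 140.2. On protein-coding transcripts alone the order turned, with Bnip3 at 133 and 135 TPM and Bnip3l at 51.9 and 48.6. Ankrd37, a small ankyrin-repeat gene, had 18.2 and 17.2 TPM. Car9, the cell-surface carbonic anhydrase that is among the most used tissue markers of hypoxia, had 3.12 and 7.38. Of 22 other Hif targets fixed as a list, 20 were detected. The highest were Mif at 2344 and 2455 TPM, Fam162a at 279.6 and 294.6 and Ndrg1 at 124 and 131. The glucose carrier Slc2a1 was at 109 TPM in each library and Vegfa at 5.17 and 4.14, both chosen for mention after their values were seen. Epo and Bhlhe41 were the 2 not detected, at 0.56 and 0.62 and at 1.04 and 0.86 TPM.

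The ACGTG core was also counted in promoters. It is not independent of the list, which holds genes known as Hif targets. RefSeq windows of 250 bases before to 50 bases after each start site (GRCm38.p6) were present for 43 of the 45 genes. ACGTG, on either strand, occurred in a window of 25 of these (58.1%), beside 21.8% of all 27025 genes in the table and 28.9% of 10286 detected protein-coding genes. Counted per window, 29 of 64 (45.3%) held it beside 19.6% of 32851. The count includes CACGTG, which other factor families also bind and which 10 of the 43 (23.3%) held beside 8.09% of all genes and 11.5% of the detected protein-coding genes. A match describes letters, not binding, and some of these genes are known as Hif targets through such sites. The shares therefore describe the list and do not test it. A CACGTG counts once on each strand. Not every member named above as a Hif target held the core. The windows of Pdk1 and Pfkfb4 held none, and Bnip3l had no window. To show the letters in members of different roles, sites are printed for 6 known targets that do hold the core. The site nearest the start of transcription is given, 5′ to 3′ on the gene's strand. Capitals mark the core (ACGTG, or CACGT where it lies on the opposite strand).
Ldha: tgggttcccgCACGTccgctgggct
Pgk1: atggaagtagCACGTctcactagtc
Egln3: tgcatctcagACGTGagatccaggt
Bnip3: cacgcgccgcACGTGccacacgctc
Car9: atttccgatgCACGTacagcccgtc
Ankrd37: gtgtttgggtACGTGaggccgcagc
These lie at chr7:46845760-46845784, chrX:106186959-106186983, chr12:54204089-54204113, chr7:138909599-138909623, chr4:43506998-43507022 and chr8:45999842-45999866. The first capital is 34 bases before the start site for Ldha, 131 for Pgk1, 229 for Egln3, 107 for Bnip3, 18 for Car9 and 6 for Ankrd37. In Bnip3 the printed core lies in CACGTG, and in Ldha and Car9 the core is on the opposite strand, as it is in Pgk1.

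Several of the levels above rest in large part on non-coding transcripts. Among the 41 members with a mean TPM of 5 or more, 6 had over 50% of their TPM in transcripts annotated as non-coding, beside 7.17% of 10689 protein-coding genes. They were Bnip3l (86.2% and 85.5%), Ankrd37 (75.9% and 57.02%), Hk2 (64.6% and 66.0%), Pdk1 (58.8% and 59.3%), Eno2 (56.5% and 50.5%) and Gapdh (52.0% in both). In Gapdh, the 483-base transcript Gapdh-208 alone held 51.1% and 50.9%, from 8708 and 8712 of the gene's counts, while the coding Gapdh-203 of 1420 bases held 762 and 734 TPM from 23394 and 22763 counts. In Bnip3l, the 354-base Bnip3l-204 and the 789-base Bnip3l-205 held 175 and 151 TPM and 144 and 133 TPM. The coding Bnip3l-201, of 3238 bases, held 51.9 and 48.4 TPM from more counts than either. In both genes the short transcripts carry a larger share of TPM than of counts, because TPM divides by length. Of 34 members with 2 or more transcripts and a mean TPM of 5 or more, 33 had the same leading transcript in both libraries, and Ankrd37 did not. The leading transcript held over 90% in both libraries in 15, among them Ldha, Pgk1, Tpi1, Gpi1, Pfkl, Eno1 and Pkm.

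**Figure D4:**
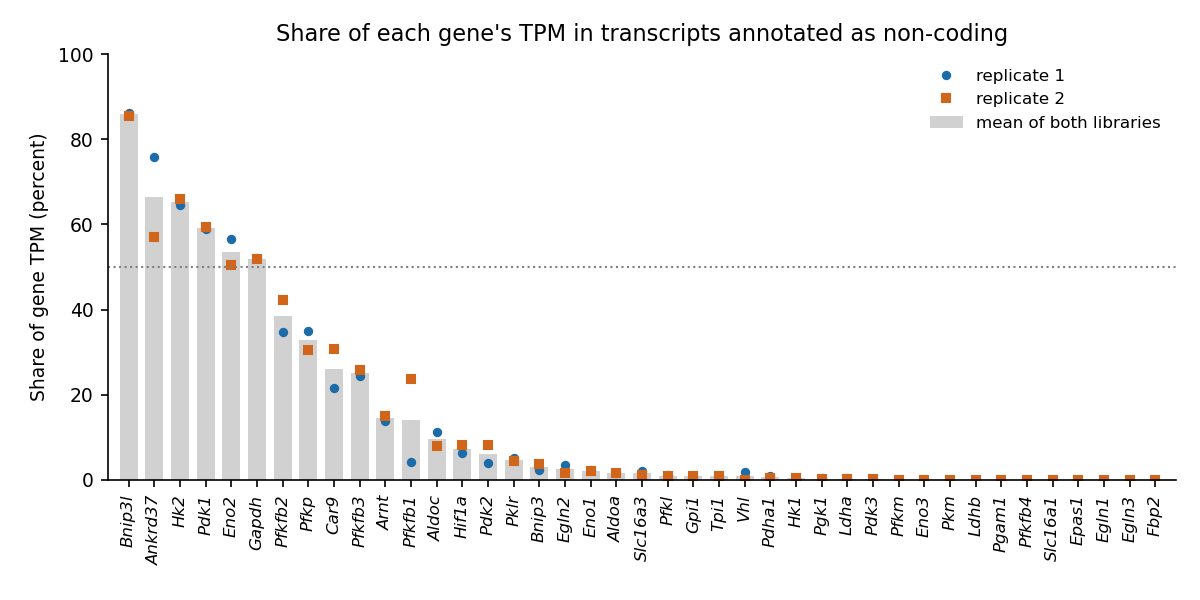
Share of gene TPM, in percent, held by transcripts annotated as non-coding, for the 41 members with a mean TPM of 5 or more, as the mean of both libraries (bars) with each library as a point. Bnip3l, Ankrd37, Hk2, Pdk1, Eno2 and Gapdh lie above the dotted line at 50%, and most of the others lie under 10%.

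Glycolytic genes are known for processed pseudogenes, and reads can be split between a gene and such copies. Among the 45 genes, 9 have gene copies at 95% identity or more over 200 bases or more, 128 copies in all. Gapdh has 117 of them, which together held counts equal to 7.44% and 6.55% of its own. Pgk1 has 2, chiefly Pgk1-rs7 with 100% identity over 1255 bases, with 13.4% and 13.98% of its counts. Pgam1-ps2 held 4.61% of the Pgam1 count in both libraries and the 2 copies of Eno1 2.02% and 2.05%. For Gpi1, Ldha, Ldhb, Bnip3 and Bnip3l the copies held under 1%. Reads of Pgk1 and Gapdh could be split to about this extent, which exceeds the difference between libraries for both genes. The deposited interval of Pgk1 was also wide for its count, 5.80% and 5.92% of its level, beside 3.15% and 3.23% for Gpi1 with a like count.

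Between the embryos most of the 45 genes differed little. The difference of log2(TPM + 1), replicate 2 minus replicate 1, had a median of -0.01 over the 41 members with a mean TPM of 5 or more, beside -0.05 over all 11324 genes at that level, and 39 of the 41 lay within 0.3. Of all 45 genes 19 lay above 0 and 26 below, a split that moved with the scaling, to 26 and 19 with TMM or DESeq2 factors and to 11 and 34 with spike-in scaling. A gene was taken to differ when its mean TPM was at least 5, this difference at least 1 in either direction and its deposited intervals did not overlap. By this rule 1 of 41 members was higher in replicate 2, beside 0.45% of all genes, and 0 were lower, beside 0.0442%. The gene was Car9. Its 114 and 262 expected counts gave 3.12 and 7.38 TPM with intervals of 2.93 to 5.22 and 6.92 to 10.6 (chr4:43506966-43513729), a difference of 1.02. That is just past the limit, and the next member, Pfkfb3, was at 0.32. In mean level Car9, at 5.25 TPM, was likewise just inside the minimum, and the highest member left out was Pgam2 at 1.74. With spike-in scaling or posterior mean TPM the difference of Car9 was 0.96 and 0.94 and no member passed. The rule was not run on protein-coding transcripts alone. There Car9 was at 2.44 and 5.11 TPM, a mean of 3.775, which is under the minimum of 5. On these values its difference was also under the limit of 1. The summed markers of the pancreas (8.61 and 1013 TPM, 8 of 8 genes higher), erythroid cells (3357 and 4995 TPM, 4 of 5) and neutrophils (5.06 and 20.1 TPM, 2 of 5) were higher in the same library, and their part in the Car9 difference was not tested.

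A second rule asked whether a gene lay outside the range that holds the central part, 95%, of all genes of its class of mean TPM (1 to 5, 5 to 50, 50 or more). It found 2 of 44 members, Car9 above and Ldhb below, beside 5.02% of 15411 genes, a share near that of the members. Ldhb was at -0.27, where the limit of its class was -0.26, and its intervals did not overlap. Rescaled over nuclear protein-coding genes, Ldhb returned within the limit. The deposited intervals of 10 of the 45 members did not overlap between embryos, and all 10 were among the 41 with a mean TPM of 5 or more. The same was the case for 2851 of 11324 genes at 5 TPM or more, a share near that of the members. These 10 were Gpi1, Aldoa, Tpi1, Pkm, Ldhb, Slc16a1, Arnt and Bnip3l, lower in replicate 2, and Fbp2 and Car9, higher in it. Each kept the sign of its difference under all 5 other scalings and estimates tried. Whether their intervals stayed apart under these was not tested. The intervals cover the counting of reads and not the spread between embryos. The 4 X-linked members Pgk1, Pdha1, Pdk3 and Pfkfb1 differed by 0.0049, -0.074, -0.007 and -0.042 and lay within the central range, where Xist and the Y-linked genes stood apart.

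**Figure D5:**
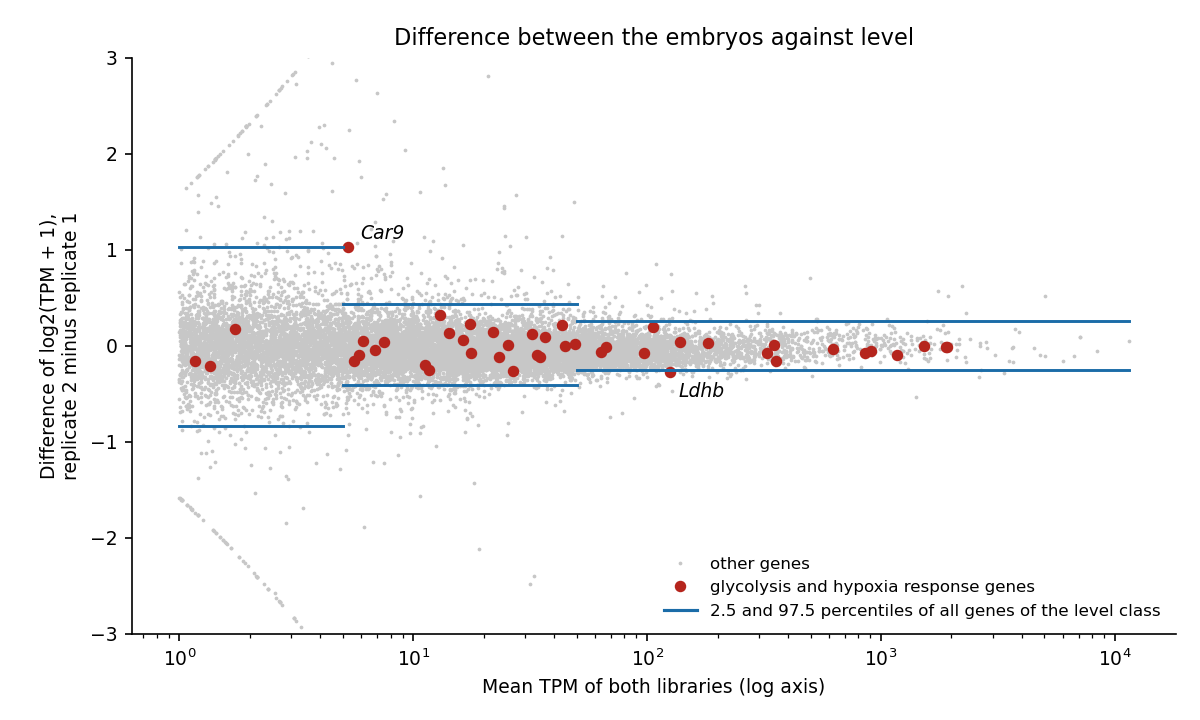
Difference of log2(TPM + 1) between the embryos against mean TPM on a log axis, for the 44 members with a mean TPM of 1 or more (red) and 15313 other genes (grey), with lines for the range that holds the central 95% of all genes in each level class. Another 54 genes lie outside the axis, Car9 lies above the lines of its class and Ldhb just under them, and the other members lie between.

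No gene of the pathways that meet glycolysis passed the first rule, that of a difference of at least 1 with intervals that did not overlap. Over 11 lists with 97 entries, 84 were detected, 74 had a mean TPM of 5 or more and 0 differed between the embryos in either direction by that rule. Of all genes 0.45% were higher and 0.0442% lower by it, so a count of 0 among 74 is near the general share. By the second rule Tkt, a transketolase of the pentose phosphate branch, lay outside the central range, at -0.28, as did 5.02% of all genes. In the pentose phosphate branch 8 of 8 genes were detected, with Taldo1 at 257 and 259 TPM, Pgls at 215 and 224 and Tkt at 74.8 and 61.4 the highest. The serine and glycerol branches, which draw on glycolytic intermediates, had 7 of 8 detected, led by Phgdh at 229 and 242 TPM, Shmt2 at 85.8 and 92.5 and Shmt1 at 79.9 and 73.6. Glycogen genes were detected in 9 of 10, with Pgm1 at 112 and 117 TPM, Ugp2 at 58.5 and 55.2 and Pygb at 58.3 and 54.7. The liver synthase Gys2 was not among them, at 0.02 and 0 TPM. Of side enzymes of phosphoglycerate all 4 were detected, led by Pgp at 116 and 130.02 TPM, Minpp1 at 51.2 and 49.3 and Bpgm at 22.9 and 28.7. Of 4 genes on lactate carriage 3 were detected, Bsg, Emb at 7.57 and 9.86 TPM and Slc16a7 at 2.48 and 3.19. Of 9 other isozymes of the steps, 3 were detected: Adpgk at 30.0 and 27.6 TPM, Eno1b at 7.32 and 8.33 and Hkdc1 at 3.54 and 4.54.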

How the data were processed

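The 2 libraries were mapped to mm10 with GENCODE M4 genes, per the notes deposited with the files. Aligner, quantifier and strand use were not given in the sources used here. The authors deposited expected counts per gene and per transcript, fractional where a read fits several features. TPM and FPKM values, deposited by the authors per the file headers, cover all features of a table, of which 96 spike-ins hold 9.77% and 10.4% of TPM. Isoform percentages of each gene, also deposited, came from the transcript tables. Bounds of the 95% TPM interval and posterior means were deposited too, with bounds taken here as scores.

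Symbols, biotypes, transcript names and exon coordinates came from GENCODE M21 (GRCm38, the assembly of mm10), with 42462 of 43346 identifiers matched. Non-coding means any transcript biotype of that release other than protein-coding. The members and all gene lists were chosen with earlier results of these data known. Named were every member with both TPM values, with counts and intervals for the leading isozyme of each step, the Ldh, Pdk, Pfkfb, Hif alpha and Egln members and those past a rule, and the 3 highest of each other list. Some isozymes are not reported here and enter no sum or share. Copies were sought with blastn 2.17.0. Amplified reads are not independent molecules, intervals cover counting error only, and a floor of 3 counts came to a median TPM of 0.0536 and 0.0531.

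With a single group no test could be made and no p-value is given, so rules of size were used, which were tested on simulated data. Alternatives were TMM factors (edgeR 4.0.16) and size factors (DESeq2 1.42.0) from rounded expected counts, spike-in scaling, rescaling to nuclear protein-coding genes, a pseudocount of 0.1 for 1, other detection limits, no filter on level, posterior mean TPM, FPKM, shares of expected counts, copies added, and each library left out. Sums over protein-coding transcripts, and expected counts for Pkm, were added after the values were seen.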

Additional observations from a re-analysis of the deposited data

How the results depend on the processing

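Of 45 genes, from 40 (at TPM of 5) to 45 (at 10 expected counts) were detected under every alternative tried. On posterior mean TPM the Pkm M2 share was 90.58%, beside 90.59% in the main setting. Its other settings could not move it by more than its spread between libraries. FPKM keeps ratios within a library, and so do expected counts for transcripts of equal length. Leaving out 1 of 2 libraries always moves a mean by less than their SD. The Ldha share (93.9%) moved by less than its spread on posterior mean TPM and on protein-coding transcripts. On expected counts it was 94.98%. The median level of 33.7 TPM was 33.3 to 34.8 when either library was left out, 29.2 on protein-coding transcripts and 23.0 as FPKM, a unit on another scale. Car9 passed the difference rule under 5 of 7 alternatives, while with spike-in scaling and with posterior mean TPM 0 members passed. Of those it passed, the pseudocount of 0.1 and the lack of a filter on level could not have removed it. On protein-coding transcripts, where the rule was not run, its mean TPM of 3.775 lay under the minimum and its difference under the limit. Rescaling over nuclear protein-coding genes left 1 member, Car9, outside the central range. The scalings moved the median of all genes by 0.08 or less on the log2 scale. The median leading share of 93.9%, which is that of lactate dehydrogenase, became 94.98% on expected counts. On expected counts, which grow with transcript length, Hk2 fell to 39.4% of hexokinase, behind Hk1, and Slc16a3 to 38.9% of the carriers, behind Slc16a1. On protein-coding transcripts the leading gene changed in 3 families, with Hk2 at 29.1%, Pdk1 at 29.2% and Bnip3l at 27.3%. The other shares kept their leading gene under all settings. ACGTG or GCGTG was found in 36 of 43 promoters (83.7%), beside 46.7% of all genes and 67.3% of detected protein-coding genes. No paired analysis was possible because the libraries form a single group. With 2 libraries of 1 group, depth does not limit the common genes, but Fbp1, Hk3, Pgam2 and Pdk4 rest on under 100 counts each.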

Other observations

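Both embryos expressed Hk1 mainly through the same transcript, but in different proportion. Hk1-202, of 4278 bases, had 14.2 and 12.5 TPM in replicates 1 and 2, and Hk1-201, of 3639 bases, 1.82 and 6.05 TPM. The deposited intervals of Hk1-201, 0.12 to 3.16 and 3.55 to 7.91 TPM, did not overlap, and its share of the gene was 11.3% and 32.0%. Ankrd37 was the gene whose leading transcript differed. The coding Ankrd37-201 had 24.1% of it in replicate 1, just behind Ankrd37-203 at 24.75%, and 43.0% in replicate 2, where it led. The deposited intervals of Ankrd37-201, 1.17 to 6.30 and 4.78 to 9.26 TPM, overlapped, so the change of leader was not resolved. Hk1 and Ankrd37 were chosen after their values were seen, and the causes were not tested.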
